A study of Mus musculus with 4 samples.

Results

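The transcripts described here are of 3 genes named 0610010B08Rik, Gm14430 and Gm4724 in the deposited tables. They were taken as part of a dense array of KRAB zinc finger genes on mouse chromosome 2, which could not be checked for Gm14430. Every row whose gene symbol, split at commas, held one of these names was taken, which gave 6 of the 14099 named rows of each table. The members were chosen by these measured values, the knockout and WT RPKM: their rows stood together at 0.709 to 0.723 of wild type (WT) in the knockout. Their own difference between genotypes is therefore given as a description, without a test. Polyadenylated RNA of mouse embryonic stem cells was sequenced in 4 libraries, 2 labelled WT and 2 labelled Naa10-KO. The knockout removes Naa10, the catalytic subunit of the major N-terminal acetyltransferase of newly made proteins. All cells were hybrids of C57BL/6 mothers that carried the Naa10 deletion on an X chromosome and WT fathers of the strain JF1, and the WT cells were from littermates of the knockout. Cells of both genotypes were derived from the inner cell mass of blastocysts, grew in N2B27 medium with LIF and inhibitors of Mek and Gsk3, and had passed 5 times on irradiated fibroblast feeders and 5 times without them. The labels call the libraries biological replicates and do not say whether they were separate lines, so a spread or p-value here covers only these 4 libraries, and it may be technical.

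KRAB zinc finger proteins are the largest family of DNA-binding repressors in mammals. Their C2H2 zinc fingers, each a small fold held by a zinc ion, read DNA sequence, and the KRAB domain near the N-terminus recruits Trim28 (KAP1), which brings the histone H3 lysine 9 methyltransferase Setdb1 and silences the site, in embryonic stem cells above all at transposable elements. The genes multiply by duplication in tandem, so neighbours within an array are often nearly the same sequence, and short reads from one copy can be placed on another.

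The label was checked against GENCODE M21 transcripts. Gm4724 was found by name, and 0610010B08Rik is an older name of Gm2026 in RefSeq, while Gm14430 was matched to no transcript. The coding sequences of Gm4724 and Gm2026 were the same 1494 nucleotides and translate into 13 C2H2 fingers behind a KRAB A box. The search pattern for that box had to be widened by 1 residue after the sequences were seen. The same coding sequence was carried by 7 genes of the array, the others being Gm11007, Gm14308, Gm14434, Gm2007 and Gm4631, and no row analysed here bore one of those 5 names. The array, taken as the run of genes with 3 or more fingers that start less than 1 Mb apart, held 40 genes with 3 to 25 fingers (median 11). These had 27 distinct coding sequences, and 19 of the genes fell into 6 groups of identical copies.

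The stretches that reads could assign were few. Cut into all overlapping stretches of 50 bases, the transcripts of Gm4724 and Gm2026 had 0.0% of stretches found in no other gene. With 100 bases the unshared part was 0.385% for Gm4724 and 3.29% for Gm2026. Every 50-base stretch of Gm4724 also lay in Gm14434, 99.7% of them in Gm14308 and 99.6% in Gm2026. The member rows therefore measure a group of copies that share reads, and the share of any single copy was not separated.

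Sequence likeness extended to the promoters. RefSeq promoter windows (GRCm38.p6, 250 bases before to 50 after the annotated start) were letter-identical for 4 genes, Gm4724, Gm2026, Gm14434 and Gm14308. The 3 windows below are shown because they stand for the members and for the neighbours with the lowest and the highest difference between genotypes. The first serves Gm4724 (chr2:175435728-175436027, minus strand) and Gm2026 (chr2:175965105-175965404, plus strand), the second Gm14295 (chr2:176798350-176798649, plus strand) and the third Zfp931 (chr2:178078376-178078675, minus strand). All are written 5′ to 3′ on the strand of the gene, and capitals mark CCAAT, or ATTGG, which is CCAAT read on the other strand.
Gm4724 and Gm2026: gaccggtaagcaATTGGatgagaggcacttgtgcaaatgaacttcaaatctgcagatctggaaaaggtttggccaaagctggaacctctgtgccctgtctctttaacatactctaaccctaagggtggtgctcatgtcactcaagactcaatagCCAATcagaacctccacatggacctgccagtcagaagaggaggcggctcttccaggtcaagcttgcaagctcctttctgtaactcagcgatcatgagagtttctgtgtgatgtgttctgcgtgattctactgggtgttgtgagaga
Gm14295: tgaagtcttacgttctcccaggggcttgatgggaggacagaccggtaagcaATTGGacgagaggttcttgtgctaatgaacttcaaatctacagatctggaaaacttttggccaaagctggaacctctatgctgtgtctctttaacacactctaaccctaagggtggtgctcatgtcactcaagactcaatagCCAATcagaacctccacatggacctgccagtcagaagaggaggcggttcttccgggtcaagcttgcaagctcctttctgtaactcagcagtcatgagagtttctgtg
Zfp931: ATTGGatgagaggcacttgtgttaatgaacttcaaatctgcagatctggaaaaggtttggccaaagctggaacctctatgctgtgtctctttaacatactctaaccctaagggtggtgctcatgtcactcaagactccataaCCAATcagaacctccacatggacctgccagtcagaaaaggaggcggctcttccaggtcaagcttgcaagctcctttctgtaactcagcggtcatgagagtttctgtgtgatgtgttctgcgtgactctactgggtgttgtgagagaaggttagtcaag
The window of Gm14295 matched that of Gm4724 at 94.3% of 261 aligned bases, and that of Zfp931 at 96.5% of 288. The CCAAT of the Gm4724 window begins 96 bases and its ATTGG 238 bases before the annotated start, with 142 bases from the first letter of one to the first of the other. Of 29 genes of the array with a window, 28 held CCAAT on either strand and 26 held the pair at exactly that distance. CCAAT on either strand was present in 37.4% of the 32544 distinct mouse windows. The pair at that distance was in 0.0922%, or 30 windows, and among these only 4 genes were not of the array. TATAAA and GGGCGG, sought on both strands, were in 0 of the 29 windows and in 13.6% and 35.9% of all windows. Across the array, 28 of the 29 windows aligned to that of Gm4724 over 220 bases or more, at 93.6% identity or higher apart from Gm14393 at 78.2%, so these windows are copies of each other and not independent examples. The letters describe the windows and say nothing about which factor acts there.

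Levels of the member rows were low to moderate and lay close together. RPKM, read number per kilobase of transcript after scaling to a library's mapped reads, allow for length. Levels of different rows can therefore be set side by side, but where copies share reads a row's level need not be that of its gene. The row named 0610010B08Rik alone read 4.97 and 5.35 RPKM in WT replicates 1 and 2, and 3.45 and 4.01 in Naa10-KO replicates 1 and 2. Both knockout libraries were below both WT libraries, with replicate 1 the lower of the knockout pair. The group means were 5.16 ± 0.267 RPKM in WT and 3.73 ± 0.397 in Naa10-KO (SD, n = 2 each), a ratio of 0.722.

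The row that joins 0610010B08Rik and Gm14430 read 4.97, 5.35, 3.45 and 4.01 RPKM in the same order, and the first of 2 rows named Gm4724 read 4.96, 5.34, 3.44 and 3.99. The second Gm4724 row read 4.97, 5.34, 3.44 and 3.99. These 4 rows differed by at most 0.448% in any library and are counted as 1 measurement, since the 2 genes with a matched transcript have the same coding sequence and share reads. Gm14430 appeared only in the joined row, so it has no value of its own.

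The remaining 2 rows join 0610010B08Rik with Gm4724 and were not near-identical to the others. The first read 5.28 and 5.63 RPKM in WT and 3.62 and 4.25 in Naa10-KO, with means of 5.46 ± 0.249 and 3.93 ± 0.445 and a ratio of 0.721. The second was the highest of all member rows, at 6.24 and 6.36 RPKM in WT and 4.12 and 4.81 in Naa10-KO, with means of 6.30 ± 0.0804 and 4.46 ± 0.486 (SD, n = 2 each) and a ratio of 0.709. In neither row did the genotypes overlap. The order of the 3 measurements by level was the same in every library, but the means of the near-identical set and the first joined row were closer to each other than the 2 libraries of either genotype.

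**Figure D1:**
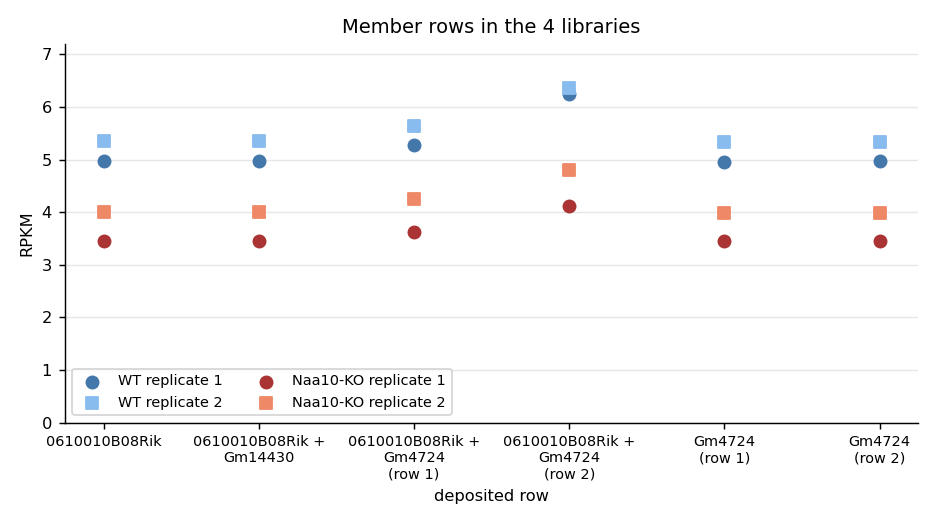
RPKM of the 6 member rows (vertical axis, linear from 0) in the 4 libraries, 1 column per deposited row; circles are replicate 1, squares replicate 2, blue WT and red or orange Naa10-KO. In each column both Naa10-KO points lie below both WT points, and the columns of the 4 near-identical rows cannot be told apart by eye.

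The shortfall was not the same in the 2 knockout libraries. Relative to the WT mean, the 6 rows stood at 0.654 to 0.669 in Naa10-KO replicate 1 and at 0.763 to 0.778 in Naa10-KO replicate 2. On the scale log2(RPKM + 1), which understates differences of low rows, the knockout minus WT difference was -0.38 for the near-identical set, -0.39 for the first joined row and -0.42 for the second. All 6 rows passed the filter of 1 RPKM in at least 2 libraries, in both groups. Over all 11912 rows that passed it, both knockout libraries were below both WT libraries in 34.9%, and the median difference was -0.06. Between 12.9% and 15.3% of those rows had a lower difference than the member measurements. The rule chose the members on this contrast, and nothing is read from these shares.

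Several properties of the libraries differed alongside these values. The relative depth was taken from the steps of low values in microRNA rows alone, with a step assumed to be 1 read. It was 1 and 1.02 in WT and 1.46 and 1.68 in Naa10-KO replicates 1 and 2. These are the most common ratios to WT replicate 1, found in 10 of 16, 7 of 13 and 6 of 12 classes of hairpin length between 60 and 80 nucleotides. RPKM do not show the absolute depth, and precision per row was not derived. All 14 fibroblast markers listed for feeder cells were found, none at 0 in any library, and their summed level was 443.9 and 460.8 RPKM in WT, 1170 in Naa10-KO replicate 1 and 468.2 in replicate 2, with 13 of the 14 highest in Naa10-KO replicate 1. Such sums follow their highest rows most. The 10 naive stem cell markers, with Dppa5a read through a row that joins it with Ooep, summed to 4952 and 5036 RPKM in WT and to 4199 and 5082 in Naa10-KO. Of these, 1 was highest in Naa10-KO replicate 1 and 8 were above both WT libraries in replicate 2. Both knockout libraries were above both WT libraries for 3 of the 10 and below for 1. Pou5f1 was above WT in both, at 924.4 and 970.9 RPKM against 808.2 and 815.1. Nanog, Sox2 and Zfp42 were below both WT libraries in Naa10-KO replicate 1 and above them in replicate 2. Nanog read 258.0 and 253.4 RPKM in WT and 174.7 and 312.3 in Naa10-KO. Of the fibroblast markers, 3 were above both WT libraries in Naa10-KO replicate 2, while Col1a1, Col1a2 and Col3a1 were below both. Naa10-KO replicate 1, the library with the high fibroblast sum and the lower stem cell sum, was also the lower of the knockout pair for every member row. Of 7 listed markers of the 2-cell-like state, 4 were found, none at 0 in any library, and they summed to 7.12 and 7.58 RPKM in WT and to 3.31 and 1.95 in Naa10-KO. What part depth and these markers had in the members' values was not tested, and in bulk RNA fewer cells of a type and less RNA per cell cannot be told apart. The targeted gene is read through a row that joins Naa10 with its neighbour Renbp, which read 104.8 and 105.6 RPKM in WT and fell to 28.9 and 34.4 in Naa10-KO (log2 difference -1.71, SE 0.11, limma Benjamini-Hochberg adjusted p = 0.0342). That adjusted p was 0.367 without WT replicate 1 and 0.356 without WT replicate 2, at nearly the same difference.

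The rest of the array was examined next. Its rows hold no member name, but its list was made with earlier results of these data known. Many of its genes share reads with the members and with each other, so these rows are not separate evidence. From names listed for the array, 21 further rows were found. Joining near-identical rows left 16 measurements, of which 15 passed the filter. All 15 lay lower in Naa10-KO than in WT (57.3% of all tested rows did), and in 14 both knockout libraries were below both WT libraries, against 34.9% of all tested rows. Their median difference was -0.36, beside -0.06 over all tested rows. No measurement passed limma at an adjusted p under 0.05, where 0.764% of all rows passed, 0.546% as lower and 0.218% as higher. At an unadjusted p under 0.05, 8 of the 15 were lower, beside 13.2% of all rows. That count was 0 with either WT library left out, 1 under the replicate block, 2 with the crossed block, 4 with quantile normalization and 5 with median ratio scaling. With Naa10-KO replicate 1 left out 8 passed the adjusted threshold, and with Naa10-KO replicate 2 left out 11, when 4938 and 7081 of all rows did too; each such fit assumes that the lone library varies like the WT pair. Levels in WT ran from 1.45 to 14.5 RPKM, with a median of 9.34, close to the 10.2 of all tested rows.

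Gm14295, which encodes the longest finger array of the group with 25 fingers, had the lowest difference of the tested measurements. It read 12.91 and 12.98 RPKM in WT and 8.15 and 7.76 in Naa10-KO, a ratio of 0.615 (log2 difference -0.64, SE 0.10). Its adjusted p of 0.0999 (limma, Benjamini-Hochberg) was the smallest of the array and missed the threshold. Here the knockout replicates stood in the other order from the members, with replicate 2 the lower.

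A row that joins 5 names (Gm14288, Gm14405, Gm14431, Gm14440 and Gm8898) read 5.52 and 5.67 RPKM in WT and 3.66 and 3.92 in Naa10-KO. Its difference was -0.46, with a limma adjusted p of 0.145, and it draws in part on genes that also have rows of their own. Gm14420, now Zfp970, read 9.96 and 10.0 RPKM in WT and 6.63 and 7.38 in Naa10-KO (difference -0.46, limma adjusted p = 0.145). Gm14325, whose coding sequence is 95.8% identical to that of Gm4724 over the aligned bases, read 10.6 and 11.8 RPKM in WT and 7.33 and 9.05 in Naa10-KO, a difference of -0.41. Like the members, these 3 had their lowest value in Naa10-KO replicate 1.

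At the other end stood Zfp931, the last gene of the array. It read 4.91 and 5.33 RPKM in WT and 4.51 and 4.98 in Naa10-KO, a difference of -0.09 and the only one of the 15 whose genotypes overlapped. Gm14322 was close to it at 9.07 and 9.62 RPKM in WT and 8.57 and 8.69 in Naa10-KO (-0.10), followed by Gm14403 at 9.31, 9.99, 8.23 and 8.49 (-0.19). Gm14393, the highest of the array in WT, read 13.9 and 15.1 RPKM there and 12.1 and 12.7 in Naa10-KO, a difference of -0.21. In these 3 the knockout libraries were below WT by less than in the members, and the smallest limma adjusted p was 0.302. Whether the array's genes differ from each other in their response was not tested.

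The other measurements lay between -0.41 and -0.30. Etohi1, now Zfp971, read 7.26 and 7.31 RPKM in WT and 5.13 and 5.36 in Naa10-KO, a ratio of 0.720 that lay beside that of the members. The row joining Gm14391 and Gm6710, a pair with the same coding sequence, read 9.06, 9.83, 6.45 and 7.65, and Gm14326 read 10.6, 11.1, 7.28 and 9.07. Both have coding sequences close to that of Gm4724, at 94.2% and 95.4% identity. The lowest expressed of the tested measurements was Gm14405, at 1.492 and 1.402 RPKM in WT and 0.890 and 1.10 in Naa10-KO. Gm14327 did not pass the filter and was not tested. It read 1.03 and 0.898 RPKM in WT and 0.370 and 0.389 in Naa10-KO, a ratio of 0.394, lower than that of Gm14295. Of the 15 tested measurements, 12 were higher in Naa10-KO replicate 2 than in replicate 1, as the member rows were, and 14 were higher in WT replicate 2 than in WT replicate 1.

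**Figure D2:**
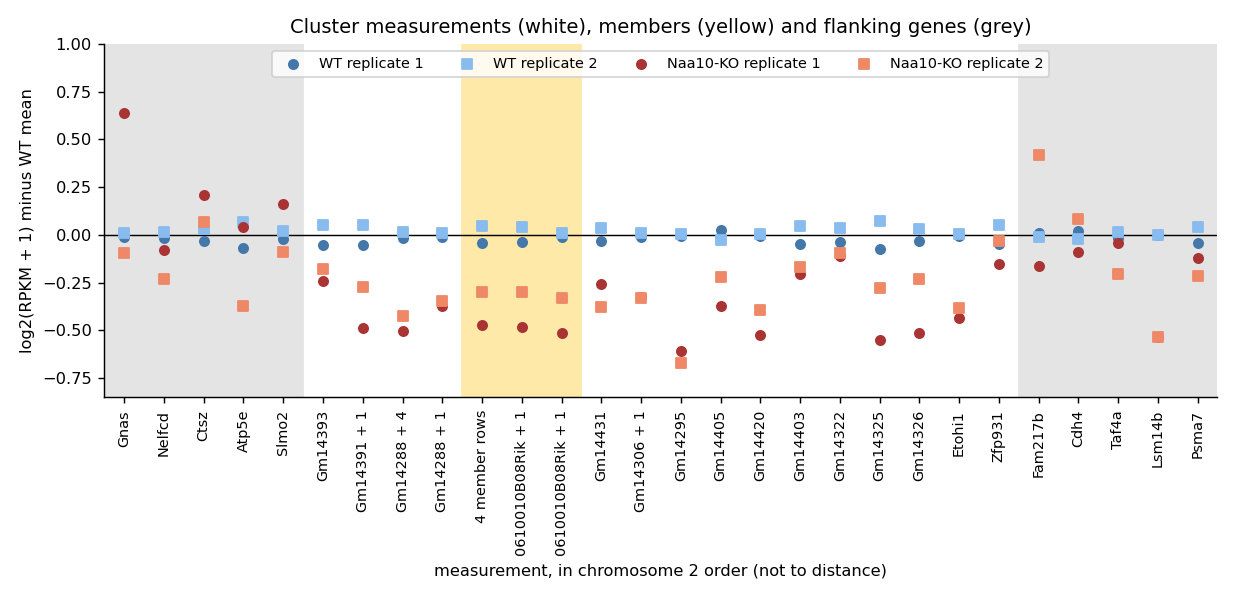
Each library's log2(RPKM + 1) minus the WT mean of that measurement (vertical axis), for measurements of the array in chromosome 2 order, not to distance. Yellow marks the members, and "+" the number of further names in a joined row. Grey marks the 5 nearest tested rows on either side, with joined rows and small RNA rows passed over. Knockout points (red circles replicate 1, orange squares replicate 2) lie below the zero line throughout the array, deepest at Gm14295 and nearest to it at Zfp931, while the flanks spread to both sides.

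Single measurements of the array outside the members took different places among all tested rows. The percentage of tested rows with a lower difference was 5.27% for Gm14295, 10.6% for the row of 5 joined names and 45.3% for Zfp931.

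**Figure D3:**
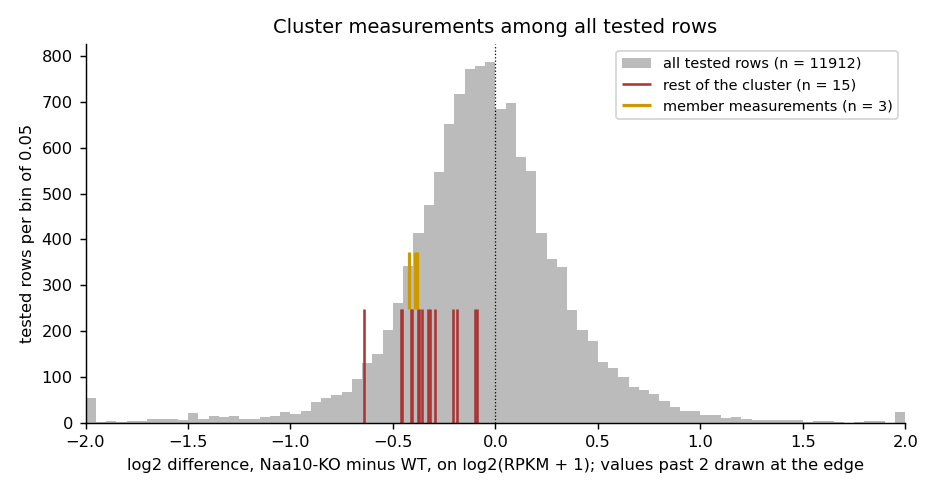
Histogram of the knockout minus WT difference of log2(RPKM + 1) over the 11912 tested rows (grey, bins of 0.05; values past 2 drawn at the edge), with lines for the 3 member measurements (gold) and the 15 other measurements of the array (red); line height has no meaning. All lines lie left of 0, between -0.64 and -0.09, and the members between -0.42 and -0.38.

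Because rows of the array share reads, the measurements were also set beside how much sequence each gene has to itself. A transcript could be matched for 13 of the 15 measurements. At least 20% of 50-base stretches of their own, a limit chosen after the values were seen, were held by 6 genes. In 5 of them both knockout libraries were below both WT libraries, beside 34.9% of all tested rows, and the median difference was -0.31. The 6 were Gm14393 (20.1% own), Gm14295 (26.2%), Zfp970 (42.8%), Zfp971 (57.6%), Gm14403 (60.6%) and Zfp931 (77.8%). In the 7 with less, all had both knockout libraries below WT, with a median of -0.36 and a range from -0.41 to -0.10. Relative to WT, the 6 genes with 20% or more stood at 0.855 (Gm14393), 0.615 (Gm14295), 0.702 (Zfp970), 0.720 (Zfp971), 0.866 (Gm14403) and 0.928 (Zfp931). What part shared reads had in these values was not tested. At 100 bases the own share was 93.3% for Gm14403 and 88.7% for Zfp931, the gene with the highest difference, so the order of genes by own sequence depends on the length chosen.

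**Figure D4:**
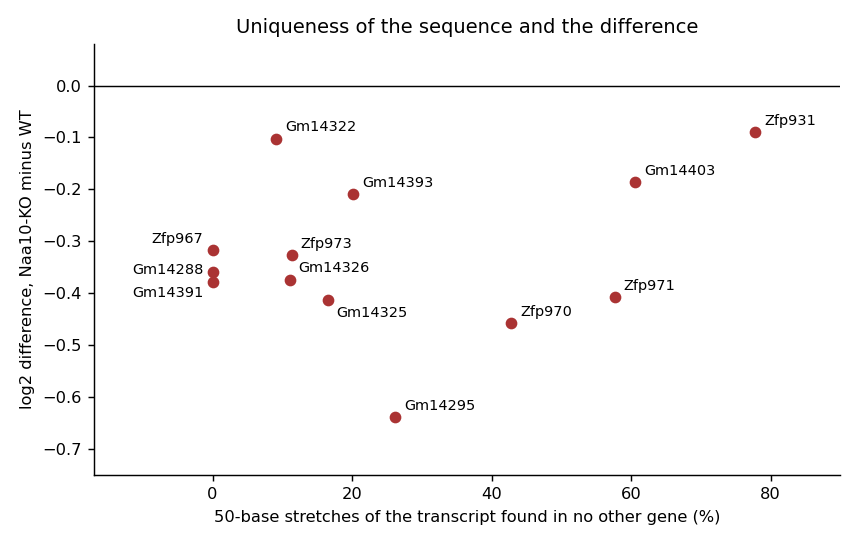
Knockout minus WT difference of log2(RPKM + 1) (vertical axis) against the percentage of the transcript's 50-base stretches found in no other gene (horizontal axis), 1 point for each of the 13 matched measurements outside the members. Genes with little sequence of their own lie between -0.41 and -0.10, and those with 20% or more between -0.64 (Gm14295) and -0.09 (Zfp931).

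Beyond the ends of the array the values scattered on both sides. The 5 nearest tested rows on each side were taken, with joined rows and small RNA rows passed over, a choice made after the array's values were seen. They had a median difference of -0.06, the same as all tested rows to 2 decimals. In 4 of the 10 both knockout libraries were below both WT libraries, in 1 above, and in 5 the genotypes overlapped, which is near the 34.9% of all tested rows that lay below. The lowest was Lsm14b, an RNA granule protein gene, at 28.7 and 28.6 RPKM in WT and 19.5 in both knockout libraries (difference -0.53, limma adjusted p = 0.0974), so a difference of the array's size was also present at the fourth of the 5 rows taken past its end.

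Zinc finger genes elsewhere showed how far the pattern was shared. Of the rows named Zfp outside the array, 278 measurements were tested, with a median difference of -0.11. Both knockout libraries were below both WT libraries in 129 and above in 63, beside 34.9% and 24.4% of all tested rows. One passed limma, Zfp428, which rose from 25.6 and 28.2 RPKM to 64.6 and 59.6 (log2 difference 1.18, SE 0.09, adjusted p = 0.0429). That call was lost with either WT library left out, under the replicate block, without a filter and without a trend. With a Naa10-KO library left out more passed, as many of all rows did. The 3 lowest, Zfp692, Zfp367 and Zfp672, had differences of -1.08, -0.87 and -0.83, with limma adjusted p of 0.131, 0.0607 and 0.147. On the log2(RPKM + 1) scale all 3 were lower than any tested measurement of the array. By ratio of the means, the untested Gm14327 of the array stood at 0.394, beside 0.397 for Zfp692. The highest after Zfp428 were Zfp36, at 19.1 and 19.4 RPKM in WT and 48.0 and 39.0 in Naa10-KO (1.13, limma adjusted p = 0.0803), and Zfp703, at 3.33, 3.32, 12.4 and 4.53 (0.99, adjusted p = 0.302). Names do not show what type of zinc finger these genes encode or which of them carry a KRAB box. For 132 tested measurements with a KRAB box in a translated transcript, a list made after the data were seen, the median was -0.20, 86 had both knockout libraries below WT, 14 had both above and 0 passed limma. At an unadjusted limma p under 0.05 there were 33, of which 31 were lower. Of all tested rows 22.1% reached that p, 13.2% as lower. Among all rows 34.9% had both knockout libraries below WT, 24.4% had both above and 0.764% passed limma.

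The KRAB genes Zfp57, Zfp809 and Rex2 outside the array did not share one direction. Zfp57, which protects imprinted methylation, read 163.9 and 149.0 RPKM in WT and 137.8 and 125.6 in Naa10-KO (-0.25, limma adjusted p = 0.234). Zfp809, a repressor of retroviruses, read 10.2, 10.8, 14.7 and 10.5 RPKM, with overlapping genotypes. Rex2 also overlapped, at 33.5, 35.1, 39.3 and 27.8.

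The array was compared with other runs of zinc finger genes, defined in the same way and after the values were seen. There were 12 others with at least 10 genes and 5 tested measurements. Their medians ran from -0.38 to 0.39, and 9 of the 12 were below 0. The run on chromosome 17 from Wiz to Zfp101 had a median of -0.38 over 12 measurements. The chromosome 2 run under the same definition had -0.37 over 14 measurements. Both knockout libraries were below WT in 10 of the 12 and in 13 of the 14, beside 34.9% of all tested rows. On chromosome 7, the run from AI987944 to Zfp819 stood at -0.27 and that from Maz to 9130023H24Rik at 0.39. A median as low as that of chromosome 2 was thus present in another run, and runs with higher values were also present; differences between runs were not tested.

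The factors through which KRAB proteins act did not move as a block. From 24 listed names, 22 rows were found and tested, of which 13 were lower and 9 higher, with a median of -0.12. None passed limma at an adjusted p under 0.05 (9 had an unadjusted p under 0.05, beside 22.1% of all rows, and the smallest adjusted p was 0.101, for Atf7ip). That held with other filters and normalizations and with either WT library left out. With a Naa10-KO library left out some passed, as many of all rows did. Trim28, the corepressor itself, read 655.9 and 691.2 RPKM in WT and 774.7 and 763.4 in Naa10-KO (0.19, limma adjusted p = 0.214). Setdb1 read 22.4 and 20.9 RPKM in WT and 17.4 and 15.0 in Naa10-KO, a difference of -0.40 with an adjusted p of 0.172. Setdb1 stood below WT by about as much as the members, and Trim28 above it.

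The rows most like the members over the 4 libraries were sought among all 11906 other tested rows, by Euclidean distance of log2(RPKM + 1) after subtraction of each row's WT mean. The nearest were Slc17a5, the lysosomal sialic acid exporter, at a distance of 0.0216, and Hat1, a histone acetyltransferase, at 0.0224. Osgepl1, Ube2q2 and Atp6v0b followed at 0.0293, 0.0297 and 0.0302. None of the 5 belongs to the array, and 140 rows lay within 0.1. The nearest measurement of the array was the row of Gm14391 and Gm6710, in place 20 at a distance of 0.0469, and the farthest was Zfp931. Hat1 read 216.7 and 229.9 RPKM in WT and 157.1 and 179.9 in Naa10-KO. Slc17a5 read 1.78 and 1.86 RPKM in WT and 0.991 and 1.29 in Naa10-KO. The scale understates differences of low rows, so rows at like distances need not have like ratios of knockout to WT.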

How the data were processed

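RNA-seq of 2 WT and 2 Naa10-KO libraries was deposited as 1 table of RPKM per library. Per the file headers, the values the authors deposited are RPKM. Per the submitters' processing notes, Cufflinks and bedtools were among the tools (no versions listed), on build mm9. An aligner, an annotation and a treatment of reads that map to several copies were not given in the sources used here. Libraries had poly-dT selection and random-hexamer priming per the labels' protocols, which do not say that strand was kept.

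The members and lists were chosen with earlier results of these data known. Differences were fitted to log2(RPKM + 1) with limma 3.58.1 in R 4.3.3 (pseudocount 1, eBayes with a mean-variance trend, two-sided, 2 residual and 1.94 prior degrees of freedom) on 11912 rows, those reaching 1 RPKM in 2 libraries or more. Benjamini-Hochberg adjusted p under 0.05 was the threshold. Rows within 1% of each other in every library were counted once in lists.

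The array and the KRAB genes were meant to be found from a protein table, which was not used here. The array was taken from 48 fixed names instead, genes outside from symbols that start with Zfp, and the closest genes from GENCODE M21 coding sequences. The KRAB pattern matched 6 of the 40 genes of the run as first written and 35 of 40 after it was widened by 1 residue. Genes to name were the 4 lowest and 4 highest of the array and its 3 highest expressed, the 3 lowest and 3 highest Zfp rows, Zfp57, Zfp809, Rex2, Trim28, Setdb1, the Naa10 row, the 5 rows nearest in pattern and any row past the threshold; others were named after their values were seen. RefSeq promoter windows are of GRCm38.p6; where a gene had several, the one most like that of Gm4724 was taken. RefSeq and GENCODE places served only for order and sequence, since the values were made on mm9. Joins and alignments used pandas 2.3.3 and Biopython 1.88 under Python 3.11.15.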

Additional observations from a re-analysis of the deposited data

How the results depend on the processing

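The member differences kept their direction under every alternative run: the near-identical set ranged from -0.47 to -0.30, the first joined row from -0.48 to -0.30 and the second from -0.51 to -0.33, each with both ends from leaving out a knockout library, and only the second passed the filter at a mean of 5 RPKM. Under these alternatives the tested measurements of the array also stayed lower in Naa10-KO in each of the 13 settings (9 of 9 at a mean of 5 RPKM or more, 16 of 16 without a filter, otherwise 15 of 15). The count of all rows past the threshold, 91, became 40 without a filter, 0 with rows at 0 and small RNA rows left out, and 12 to 7081 with 1 library left out: 12 and 15 without WT replicate 1 or 2, 4938 and 7081 without Naa10-KO replicate 1 or 2, where the lone library is taken to vary as the other group does. With the replicate number as a block 44 rows were called; same-numbered libraries did not deviate together (correlation of deviations -0.215), and the crossed pairing, chosen after seeing the data, gave 133. The array had 0 called measurements, or 8 without Naa10-KO replicate 1 and 11 without Naa10-KO replicate 2 (range 0 to 11). Its median of -0.36 became -0.45 with a pseudocount of 0.1, -0.29 with quantile normalization and -0.28 without Naa10-KO replicate 1 (leave-one-out range -0.37 to -0.28). For rows named Zfp outside, the 1 call was lost (0) without a filter, with rows at 0 left out, without a trend and under the replicate block, and the range was 0 to 137 with a library left out. Their median of -0.11 was -0.12 with a pseudocount of 0.1, -0.093 without a filter, -0.050 with quantile normalization, -0.053 with median ratio scaling, -0.20 for KRAB genes by translated transcripts (added after seeing the data) and -0.108 to -0.0801 with a library left out. Cofactor calls ranged from 0 to 16. The Naa10 row kept its difference of -1.71 with an adjusted p of 0.0821 when rows at 0 were left out, and had differences of -1.83 to -1.59 with a library left out, with limma adjusted p of 0.367 and 0.356 without WT replicate 1 or 2. The cause of these shifts was not tested. Depth per row is not known from RPKM; the share of each near-identical copy was not separated.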
